A study of Homo sapiens with 6 samples.

Results

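The genes described here encode the activators of plasminogen and the proteins that start or brake clotting at the cell surface: PLAT, PLAU, PLAUR, SERPINE2, SERPINB2, F3, TFPI, TFPI2 and THBD. These 9 genes were listed by name, with earlier results of these data known. A gene was measured where a probe set on the array carried its symbol and no other. That held for 8 of the 9, out of 18417 genes measured in the same way, while SERPINB2, which encodes plasminogen activator inhibitor 2, was not analysed here. Each of the 8 genes had a single such probe set. The cells were IMR90, a line of normal human lung fibroblasts labelled as primary cells, so every sample comes from 1 line. Of the 6 samples, 3 were untreated controls and 3 had received 1 dose (10 ng/mL) of recombinant oncostatin M of human sequence, a member of the interleukin-6 cytokine family. Total RNA of each sample was hybridised to its own array, and the sources used here do not state how long the treatment lasted. The question was which of these genes differed in transcript level after oncostatin M.

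Plasmin is the protease that dissolves fibrin and cleaves several proteins of the extracellular matrix. It is made from circulating plasminogen by tissue-type (PLAT) or urokinase-type (PLAU) plasminogen activator, urokinase being held at the cell surface by its receptor (PLAUR), and both activators are blocked by serpins. Clotting starts when tissue factor (F3), which fibroblasts display outside vessels, meets factor VII. TFPI inhibits that complex, and thrombomodulin (THBD) turns thrombin towards activation of protein C.

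After oncostatin M, 2 of the 8 measured genes rose and none fell at an adjusted p under 0.05 (limma). PLAT rose 1.50-fold and F3 rose 1.37-fold. Among all 18417 genes, 1.72% were higher and 1.7% lower by the same rule. The urokinase receptor PLAUR lay 1.24-fold lower without passing (adjusted p = 0.0943), and PLAU, SERPINE2, TFPI, TFPI2 and THBD did not pass either. At an unadjusted p under 0.05, 2 genes were higher (PLAT and F3) and 2 lower (PLAUR and TFPI2), where 4.98% of all genes were higher and 6.66% lower. The median change of the 8 genes was -0.037 on the log2 scale, against 0.00057 over all genes, with 4 genes above 0 and 4 below. The groups did not overlap for 4 of the 8 genes, higher for PLAT and F3 and lower for PLAUR and TFPI2, against 18% of all genes in either direction.

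Levels below are log2 expression values, 1 per array, and a change is oncostatin M minus control on that log2 scale with its standard error (SE). Means are given ± SD over 3 arrays. Probe sets bind with different strength, so levels are compared between arrays and not between genes. Whether replicates came from separate cultures is not stated in the labels, so the p-values reflect spread that may be technical, and 3 arrays a group limit the precision. In RNA from whole cultures, fewer cells of a type and less RNA per cell cannot be told apart.

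SOCS3, a feedback inhibitor induced by this cytokine family, rose from 7.58 ± 0.037 to 9.64 ± 0.059 (n = 3 per group), in the direction of the treatment labels. Of 12 fibroblast markers 11 lay above the level of genes taken as silent, and TBX4 did not. That level was the percentile of 95 among 409 olfactory receptor and keratin-associated protein genes, 6.74 in control and 6.77 after oncostatin M. Above it lay 2 of 10 endothelial markers (TEK and CLDN5), 1 of 10 epithelial markers (MUC1), 2 of 10 leukocyte markers (CD68, and CD14 after oncostatin M only) and 7 of 8 markers of smooth muscle and pericytes (RGS5 in control only). The defining genes PECAM1, CDH5, EPCAM, CDH1 and PTPRC lay at or below it in both groups, as did the smooth muscle marker MYH11. The mean log2 level of the endothelial list ran from 5.74 to 5.87 in control and from 5.76 to 5.95 after oncostatin M. The corresponding ranges were 5.84 to 5.86 and 5.82 to 6.12 for the epithelial list, and 5.67 to 5.70 and 5.78 to 5.96 for the leukocyte list. The smooth muscle list ran from 8.90 to 8.99 and from 8.64 to 8.73, and the fibroblast list from 10.97 to 11.03 and from 11.05 to 11.22. MUC1 (change 1.12) and CD14 (1.44) rose, and no other gene of the epithelial or leukocyte list was called. Both are part of the means of their lists. The fibroblast markers LUM and PDGFRA rose too, while PDGFRB, CNN1 and RGS5 fell. The part of such cell states in the results below was not tested.

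PLAT encodes tissue-type plasminogen activator, the protease that converts plasminogen most efficiently on fibrin. Its log2 level was 11.74, 11.80 and 11.68 in controls 1 to 3 and 12.41, 12.36 and 12.21 in oncostatin M 1 to 3 (probe set 8150509). All 3 treated arrays lay above all 3 controls, and the gap between the groups was wider than the range within either. The mean rose from 11.74 ± 0.064 to 12.32 ± 0.10, a change of 0.58 (SE 0.081, 95% interval 0.40 to 0.77, adjusted p = 0.00626, limma). By size of the rise PLAT ranked 199 among the 18417 genes. Its adjusted p was 0.0502 when control 1 was left out, and it stayed under 0.05 when any other array was left out.

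PLAU encodes urokinase, the activator linked to cell movement and matrix breakdown. Urokinase mRNA measured 11.99, 11.94 and 11.85 in control and 11.88, 11.93 and 11.71 after oncostatin M. The groups overlapped, with the lowest value on oncostatin M 3. The change was -0.086 (SE 0.084, 95% interval -0.28 to 0.11, adjusted p = 0.873, limma), an interval that does not reach the size of the rise of PLAT in either direction.

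PLAUR encodes the receptor that anchors urokinase to the membrane. Its log2 level was 10.77, 10.96 and 10.81 in control and 10.48, 10.53 and 10.60 after oncostatin M. Every treated array lay below every control, by 0.31 in the means (SE 0.079, 95% interval -0.49 to -0.13 for the change). Over all genes this did not pass (adjusted p = 0.0943, limma). It passed when genes at the silent level in both groups were left out (adjusted p = 0.0493), when only genes at or above the median level were tested (0.0375) and when the variance was allowed to follow the level (0.0241). These settings act on the tested genes or on the variance, so they could not move the change of -0.31. With each array left out in turn PLAUR never passed (adjusted p from 0.128 to 0.303, limma), and the change ran from -0.34 to -0.25. It did not pass with array weights either (change -0.24, adjusted p = 0.0554), nor with a replicate block (0.172).

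SERPINE2 encodes protease nexin-1, a serpin that inhibits thrombin, urokinase and tissue-type activator. Its log2 level was 11.14, 11.06 and 10.88 in control and 10.86, 10.96 and 10.73 after oncostatin M, so the groups overlapped. The change was -0.18 (SE 0.096, 95% interval -0.40 to 0.042, adjusted p = 0.596, limma).

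**Figure D1:**
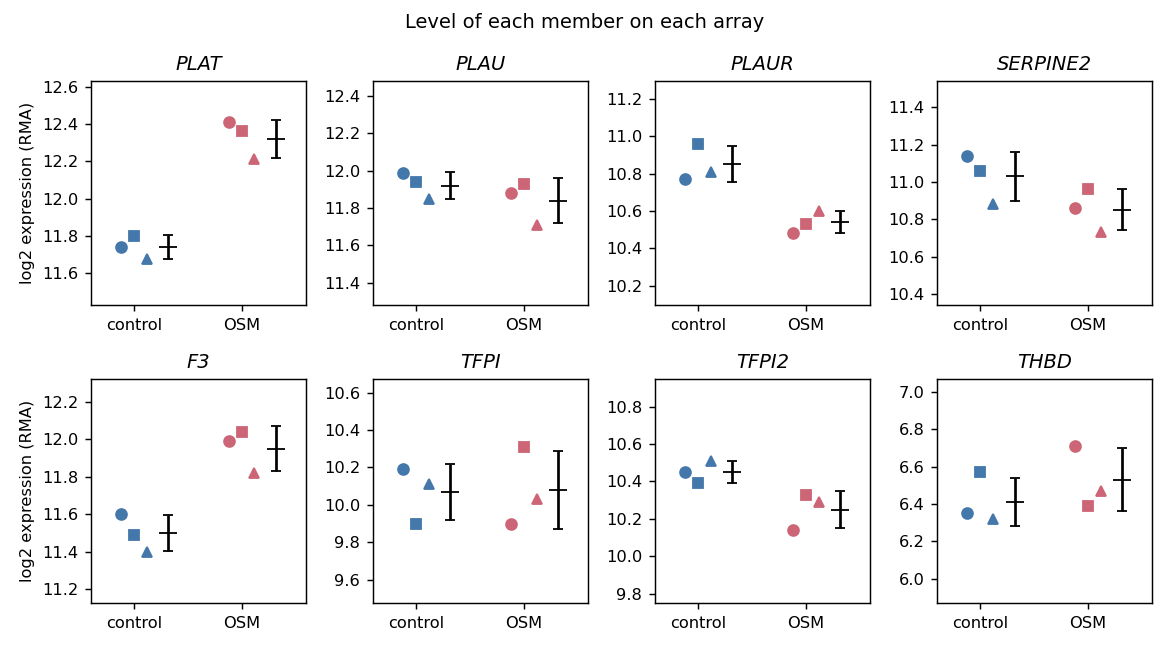
Log2 expression of the 8 measured genes on each of the 6 arrays, control in blue and oncostatin M (OSM) in red, with circles, squares and triangles for replicates 1, 2 and 3 and black bars for mean ± SD (n = 3). Each panel spans 1.2 log2 units. PLAT and F3 separate upwards, PLAUR and TFPI2 lie lower without overlap, and the other genes overlap.

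F3 encodes tissue factor, the membrane receptor of factor VII. Its log2 level was 11.60, 11.49 and 11.40 in control and 11.99, 12.04 and 11.82 after oncostatin M (probe set 7917875). Every treated array lay above every control. The mean rose from 11.50 ± 0.098 to 11.95 ± 0.12, a change of 0.45 (SE 0.089, 95% interval 0.25 to 0.66, adjusted p = 0.0322, limma). It no longer passed when control 1 (adjusted p = 0.0863), control 2 (0.13), control 3 (0.139) or oncostatin M 2 (0.12) was left out. The change stayed between 0.41 and 0.52 with any 1 array left out. With array weights it was 0.36 and passed (adjusted p = 0.0285, limma).

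TFPI encodes tissue factor pathway inhibitor, a protein with Kunitz domains that blocks the complex of tissue factor and factor VII together with factor X. Its log2 level was 10.19, 9.90 and 10.11 in control and 9.90, 10.31 and 10.03 after oncostatin M. The groups overlapped fully and the change was 0.013 (SE 0.12, 95% interval -0.27 to 0.29, adjusted p = 0.993, limma). Its sign turned in 3 alternatives.

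TFPI2 encodes a related Kunitz inhibitor that acts on plasmin and trypsin and is deposited in the matrix. The log2 levels were 10.45, 10.39 and 10.51 in control and 10.14, 10.33 and 10.29 after oncostatin M. The treated arrays all lay below the controls, but the nearest values, 10.33 and 10.39, were separated by less than the range within either group. The change was -0.20 (SE 0.078, 95% interval -0.38 to -0.017) and did not pass (adjusted p = 0.357, limma).

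THBD encodes thrombomodulin, the thrombin receptor that switches thrombin to activating protein C. The values were 6.35, 6.57 and 6.32 in control and 6.71, 6.39 and 6.47 after oncostatin M, and both means lay at or below the level of genes taken as silent. The change was 0.11 (SE 0.11, 95% interval -0.13 to 0.36, adjusted p = 0.867, limma). No difference in THBD was called, and the low signal limits what these values show.

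**Figure D2:**
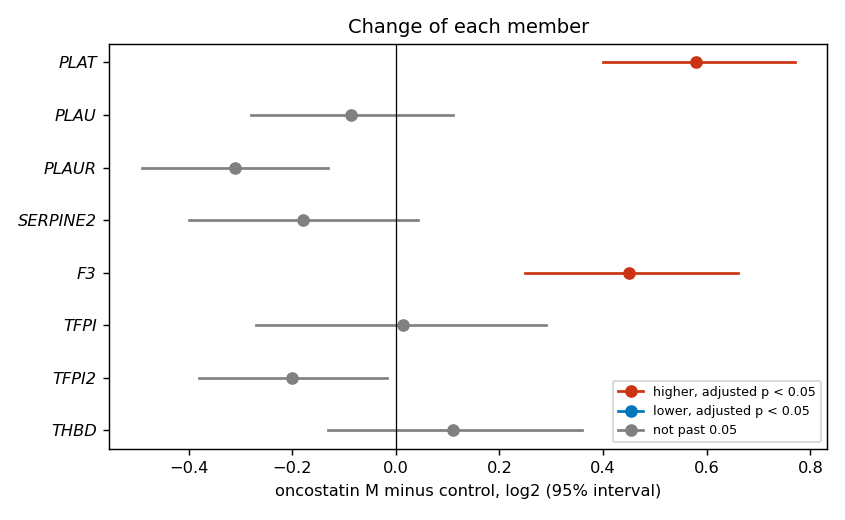
Change after oncostatin M (log2, horizontal axis) for the 8 measured genes, as points with 95% intervals from the limma fit, red where higher at an adjusted p under 0.05 and grey otherwise. PLAT (0.58) and F3 (0.45) lie to the right of 0, and the intervals of PLAUR and TFPI2 lie below 0 although their adjusted p did not pass.

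Within the groups, array 3 was the lowest control and the lowest treated array for 4 of the 8 genes, PLAT, PLAU, SERPINE2 and F3. The share of all genes with that order was not counted, so this number does not set these genes apart. For 8 pairs of genes with joint or opposing roles, the log2 difference between the genes was taken on each array and compared between groups with an exact permutation test over the 6 arrays (two-sided), for which 0.1 is the smallest p that 3 against 3 arrays allow. No pair could therefore pass 0.05. Such a difference does not show that either gene was constant.

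For the activators, the change of PLAT exceeded that of PLAU by 0.67 (SE 0.044), and the arrays of the groups did not overlap (exact permutation p = 0.1, adjusted p = 0.114 over the 8 pairs). PLAT also exceeded the inhibitor SERPINE2, by 0.76 (SE 0.072), again with no overlap. For PLAU against SERPINE2 the difference was 0.091 (SE 0.039), with no overlap, but the nearest arrays of the groups both rounded to 0.97. For PLAU against its receptor PLAUR the difference was 0.22 (SE 0.12), with overlapping groups (exact permutation p = 0.2). The change of F3 exceeded that of TFPI by 0.44 (SE 0.14) and that of TFPI2 by 0.65 (SE 0.12), with no overlap in either pair. No size is given for F3 against THBD, since THBD lay at the silent level. The change of TFPI exceeded that of TFPI2 by 0.21 (SE 0.10), and by 0.13 without oncostatin M 2. In that pair the nearest arrays of the groups both rounded to -0.26. Each of the 7 pairs without overlap had the exact permutation p of 0.1 and the adjusted p of 0.114. After a further quantile normalization the adjusted p was 0.3 for PLAU against SERPINE2 and 0.229 for TFPI against TFPI2 (exact permutation test).

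The sequence just before the start of transcription was taken from RefSeq for 7 of the 9 genes. These windows of 250 bases were searched on both strands for the AP-1 motif TGANTCA and for the STAT motif TTCNNNGAA, both chosen after the expression values were known. Proteins of the AP-1 and STAT families act downstream of oncostatin M. The 3 windows below show the gene that rose (F3) beside the 2 genes whose treated arrays lay below the controls, since all 3 hold the AP-1 letters, marked in capitals. They are printed 5′ to 3′ on the minus strand of build GRCh38.p14, from chr1:94541760-94542009 for F3, chr19:43670170-43670419 for PLAUR and chr7:93890754-93891003 for TFPI2.
F3: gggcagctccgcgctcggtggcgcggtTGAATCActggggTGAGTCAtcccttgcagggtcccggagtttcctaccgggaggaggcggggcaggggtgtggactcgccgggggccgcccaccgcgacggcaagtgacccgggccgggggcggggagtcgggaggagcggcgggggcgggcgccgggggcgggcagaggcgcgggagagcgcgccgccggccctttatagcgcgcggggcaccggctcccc
PLAUR: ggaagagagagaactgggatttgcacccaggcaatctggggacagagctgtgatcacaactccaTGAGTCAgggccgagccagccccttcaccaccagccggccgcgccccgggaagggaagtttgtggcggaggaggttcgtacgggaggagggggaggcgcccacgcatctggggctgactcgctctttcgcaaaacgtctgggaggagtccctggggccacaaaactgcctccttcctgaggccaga
TFPI2: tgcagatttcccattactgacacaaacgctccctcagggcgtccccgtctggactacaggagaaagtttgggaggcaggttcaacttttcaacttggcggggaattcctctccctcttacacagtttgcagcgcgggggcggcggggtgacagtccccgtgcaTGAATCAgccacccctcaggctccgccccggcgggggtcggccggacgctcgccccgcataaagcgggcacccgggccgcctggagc

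The F3 window held 2 AP-1 matches, beginning 223 and 210 bases before the start. PLAUR held 1, beginning 186 bases before it, and TFPI2 held 1, beginning 87 bases before it. The window of SERPINB2 held 1 as well, and those of PLAU, SERPINE2 and TFPI held none. Of all 35116 windows of this length in the RefSeq table, 6.57% held the AP-1 motif, and 0.402% held 2 or more matches. The STAT motif was in none of the members' windows and in 6.57% of all windows. The letters lay in the window of F3, which rose, and in those of PLAUR and TFPI2, whose lower levels did not pass over all genes. They are a match of letters only, and their part in any change was not tested. The window sequences of PLAT and THBD were not used here.

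Beyond these genes, the plasminogen system was described by a list of surface docking proteins, clearance receptors, further inhibitors and plasminogen itself, of which 27 of 29 genes were measured. Of these 2 rose and none fell (limma, adjusted p under 0.05), where 1.72% of all genes were higher and 1.7% lower. At an unadjusted p under 0.05, 4 were higher and 1 lower, the serpin SERPINB8, where 4.98% of all genes were higher and 6.66% lower. The median change was 0.0084, against 0.00057 for all genes. The other 25 genes did not pass, and 12 of the 27 lay at or below the silent level in both groups. VLDLR, a receptor that takes up complexes of urokinase with its inhibitors, had log2 levels of 8.32, 8.51 and 8.07 in control and 9.20, 9.24 and 8.88 after oncostatin M. It rose 1.75-fold (change 0.81, SE 0.14, adjusted p = 0.0163), and lost its call without control 1 (0.0962), control 3 (0.0515) or oncostatin M 2 (0.0532). SERPING1, the C1 inhibitor, which blocks plasma kallikrein and complement proteases, measured 7.71, 7.83 and 7.58 against 8.27, 8.23 and 8.04. Its rise of 0.47 (SE 0.095, adjusted p = 0.035) was not called without control 1 (0.161), control 2 (0.0663), control 3 (0.142) or oncostatin M 2 (0.121).

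Of the surface proteins that hold plasminogen, ANXA2 had a change of -0.0090 (95% interval -0.18 to 0.16) and its partner S100A10 one of -0.055 (-0.23 to 0.12). ENO1, a glycolytic enzyme that also binds plasminogen at the surface, lay 0.22 higher without overlap (0.052 to 0.39) and did not pass (adjusted p = 0.229, limma). PLGRKT, a plasminogen receptor, had a change of -0.17 (-0.48 to 0.14) with overlapping groups. LRP1, the main clearance receptor for activators bound to inhibitors, had a change of -0.053 (-0.22 to 0.12). The related receptor LRP8 lay 0.29 higher without overlap of the groups but did not pass (adjusted p = 0.136, limma). PLG, which encodes plasminogen and is made mainly by the liver, lay at the silent level with means of 5.79 and 5.75.

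**Figure D3:**
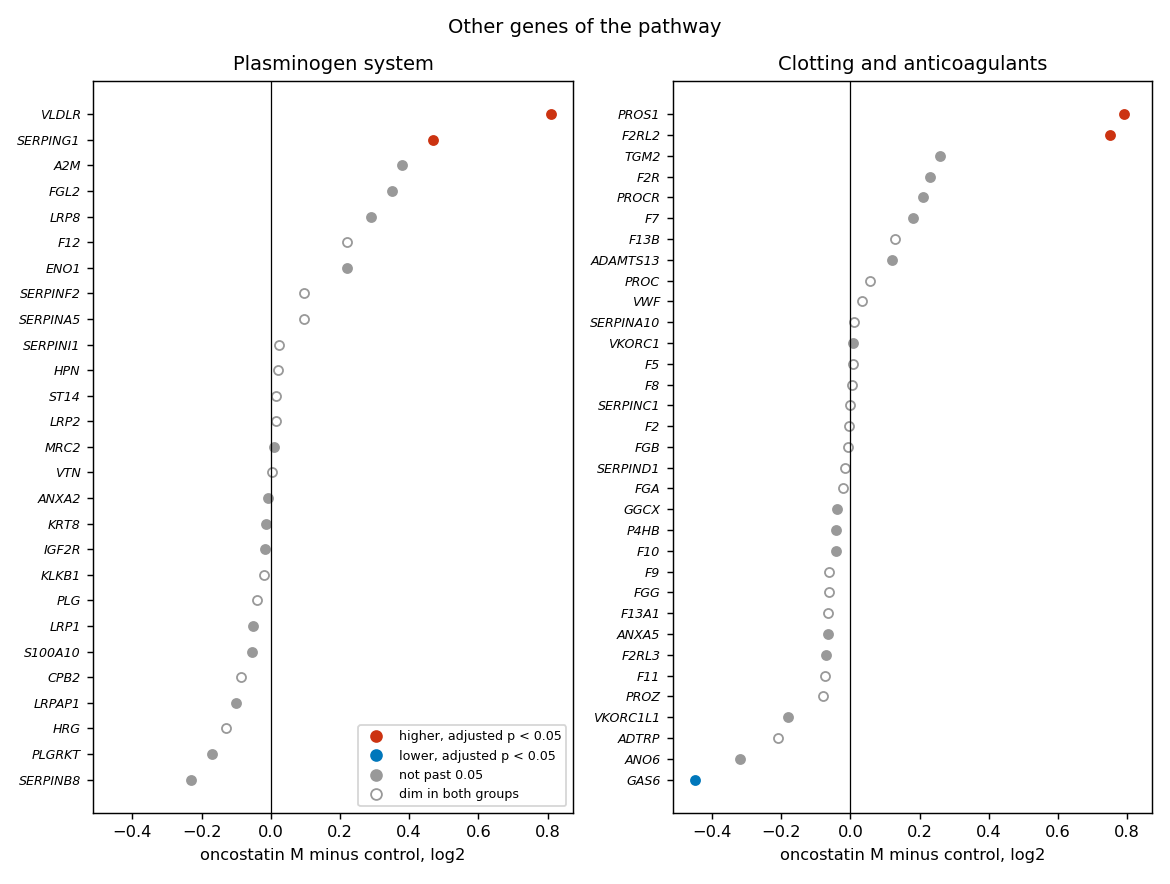
Change after oncostatin M (log2, horizontal axis) for 27 further genes of the plasminogen system and 33 genes of clotting and its brakes, ordered by size. Red and blue points passed an adjusted p of 0.05 (limma) upwards and downwards, grey points did not, and open circles mark genes at or below the silent level in both groups. VLDLR, PROS1 and F2RL2 stand apart from genes clustered around 0, and GAS6 is the single blue point.

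A second list held clotting factors, their processing enzymes, the protein C path and the thrombin receptors, and 33 of its 34 genes were measured. Of these 2 rose and 1 fell (limma, adjusted p under 0.05), where 1.72% of all genes were higher and 1.7% lower. At an unadjusted p under 0.05, 5 were higher and 2 lower, where 4.98% of all genes were higher and 6.66% lower. The median change was -0.0075, against 0.00057 for all genes. In both groups 17 of the 33 genes lay at or below the silent level, among them F2, F9 and the fibrinogen chains FGA, FGB and FGG, which the liver makes. PROS1 encodes protein S, a cofactor of activated protein C and of TFPI. Its log2 level was 8.96, 8.94 and 8.92 in control and 9.72, 9.77 and 9.71 after oncostatin M, with SDs of 0.018 and 0.031 inside the groups. It rose 1.73-fold (change 0.79, SE 0.065, adjusted p = 0.000635), and it passed without any 1 array. A near-identical pseudogene of PROS1 exists, so the signal may include it.

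F2RL2 encodes PAR3, a receptor cleaved by thrombin. It measured 10.30, 10.01 and 10.17 in control and 10.88, 11.06 and 10.81 after oncostatin M. It rose 1.69-fold (change 0.75, SE 0.10, adjusted p = 0.00539) and passed without any 1 array. The main thrombin receptor of fibroblasts, F2R, measured 11.14, 11.02 and 11.07 against 11.38, 11.43 and 11.12, and its change of 0.23 did not pass (adjusted p = 0.387). PROCR, the receptor that presents protein C, lay 0.21 higher without overlap and did not pass (adjusted p = 0.251, limma).

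GAS6, a relative of protein S that is known as a ligand of TAM receptor kinases rather than as a clotting factor, fell 1.37-fold. It measured 11.25, 11.36 and 11.22 in control and 10.82, 10.89 and 10.77 after oncostatin M, a change of -0.45 (SE 0.075, adjusted p = 0.0153). Leaving out control 1 (adjusted p = 0.0816), control 2 (0.0776), control 3 (0.0502) or oncostatin M 3 (0.0672) ended the call.

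**Figure D4:**
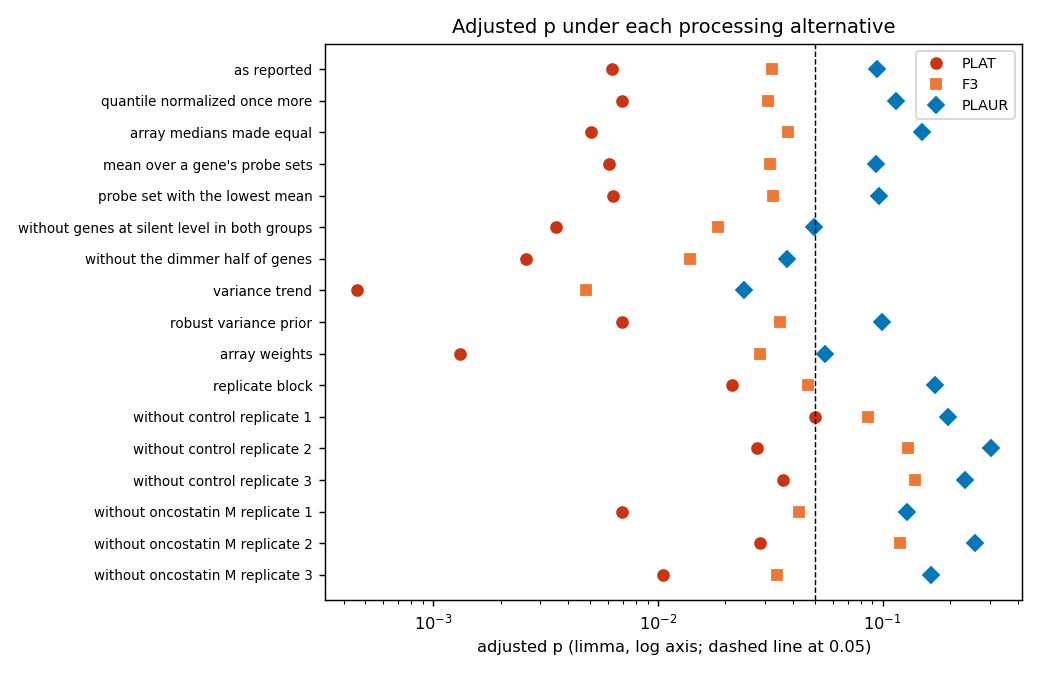
Adjusted p (limma, log axis) of PLAT, F3 and PLAUR as reported and under 16 processing alternatives, with a dashed line at 0.05. PLAT lies left of the line except without control 1 (0.0502), F3 crosses it without any 1 control or oncostatin M 2, and PLAUR lies right of it except under 3 settings.

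Over the 6 arrays, the genes whose levels followed PLAT most closely were SLCO5A1 (Pearson r = 0.9995), ABCC4 (0.9994) and KCNG2 (0.9967). Those closest to F3 were PRODH (0.9962), PODNL1 (0.996) and FILIP1L (0.9957). These are the highest of 18416 correlations over 6 arrays in 2 groups, given as a description. Each r takes in the step between the groups as well as the spread within them. The changes of SLCO5A1 (0.31, adjusted p = 0.0557, limma) and PRODH (0.17, adjusted p = 0.373, limma) did not pass.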

How the data were processed

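The deposited table holds log2 values for 33297 probe sets on each array. Per the submitters' processing notes, the authors used RMA and Affymetrix Expression Console 1.1, with settings not stated. RMA corrects background, aligns the arrays and tends to shrink differences at low signal, so a change is measured against the rest of the array. Array medians ran from 6.54 to 6.66. Of the probe sets, 19460 had 1 gene symbol in the platform table, and for each of 18417 genes the brightest on average was kept. Groups were taken from the sample titles. The 2 groups were compared over all genes with limma 3.58.1 in R 4.3.3 (eBayes, two-sided, Benjamini-Hochberg, threshold 0.05). The fit was checked on simulated arrays with independent noise, which does not test the calls made on the real arrays. Figures were drawn with matplotlib 3.10.9. Sequences are from RefSeq (GRCh38.p14). No build is named for the array files, so the only coordinates printed are those of the RefSeq windows.

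The text names the listed genes, up to 6 genes past the threshold in each of 2 pathway lists, PLG, PROCR, F2R, LRP1, ANXA2, S100A10, SOCS3, OSMR, and the 3 genes correlated best with each listed gene that passed. OSMR rose by 0.82. Genes outside this rule (LRP8, ENO1, PLGRKT, SERPINB8, F2, F9, FGA, FGB, FGG and the markers) were chosen after their values were seen. Members and lists were chosen with earlier results of these data known. SERPINB2, SERPINB6 and F2RL1 were not analysed, and 1 further gene of a list is not reported here. Alternatives covered normalization, probe set, dim genes, each array left out, a replicate block, array weights, the variance model and a stricter threshold.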

Additional observations from a re-analysis of the deposited data

How the results depend on the processing

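Of 134 refits of the 8 measured genes, the calls that moved were those of PLAT, F3 and PLAUR given in the Results, F3 at a threshold of 0.01, and the sign of TFPI. With each array left out in turn, 156 to 400 of all genes were higher and 105 to 332 lower, against 316 and 314 with every array. Both counts rose only without oncostatin M 1 (400 and 332). That array had the lowest array weight, 0.226, and oncostatin M 3 had the highest, 3.22. The listed genes called higher numbered 0 (without control 1) to 2, those of the plasminogen system 0 to 3, and clotting genes called lower 0 to 1. Array weights gave 667 and 610 of all genes, 4 plasminogen system genes higher and 2 clotting genes lower, and a threshold of 0.01 gave 175 and 112 of all genes, 1 listed gene higher (PLAT), 0 plasminogen system genes higher and 0 clotting genes lower. Without genes at the silent level, without genes under the median level and with a variance trend, 1 listed gene was lower (PLAUR), and the last 2 settings gave 2 clotting genes lower. Left-out arrays moved the sign of changes near 0: TFPI from -0.099 to 0.10, ANXA2 from -0.046 to 0.034 and PLG from -0.14 to 0.020. Array weights gave -0.014, 0.042 and 0.025 for these genes, and a further quantile normalization gave 0.0072 for ANXA2; the cause was not tested.

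Whether arrays with the same replicate number belong together is not stated in the labels. Correlations of same-numbered arrays around their group means were 0.0635, -0.456 and 0.511, and oncostatin M 1 correlated best with control 2 (0.543). Deviations around the mean of so few arrays cancel out within each group, so these correlations cannot decide whether the samples were paired. With the replicate block, 255 genes were higher and 223 lower, PLAT and F3 passed (adjusted p = 0.0213 and 0.0466, limma), and no call of a listed gene changed. The pair differences, which use no variance model, were run with the normalizations, probe set choices, replicate block and left-out arrays, and not with array weights, filters or other settings, and the filters on dim genes left no value for THBD and PLG. Signal near the silent level limits THBD.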
